A study of Mus musculus with 23 samples.

Results

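Restriction fragments of 3 mouse genes of blood cells, Itgam, Runx3 and Lck, were followed through a study of DNA methylation in muscle cell formation. The members are all fragments that overlapped the body of one of these genes or the 2000 bp upstream of it in the mm9 genome (GENCODE M1 annotation). They numbered 46 of 173430 fragments: 12 of Itgam, 28 of Runx3 and 6 of Lck. The genes were picked with earlier results of these data known, the Itgam intron and a Runx3 fragment from myoblasts against embryonic stem cells. Differences that involve embryonic stem cells or muscle are therefore given as a description, with no p-value. Calls over all fragments in these comparisons are counted beside their background, and nothing is read from them.

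Itgam encodes CD11b, the alpha chain of the integrin Mac-1, with which monocytes, macrophages and granulocytes adhere and migrate. Runx3 encodes a transcription factor of the RUNX family, known for its role in CD8 T cells and natural killer cells, and is transcribed from a distal promoter and from a proximal promoter in a CpG island. Lck encodes the SRC family kinase that starts signalling at the T cell receptor and also has a distal and a proximal promoter. None of these is a gene of the muscle fibre.

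In the assay, AIMS-seq, unmethylated CCCGGG sites are first cut blunt by SmaI. The methylated sites that remain are cut by XmaI, whose cohesive ends take the PCR adaptors. A fragment was therefore amplified and sequenced when the sites at both of its ends were methylated, and its reads do not give a methylation level in percent. Levels are given as reads per 1000000 reads of the library (rpm).

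The 23 libraries fell into 9 groups. Embryonic stem (ES) cells were the lines CGR8 (129Sv), with a technical replicate, RD1 (129X1/SvJ) and E14Tg2 (129/Ola). Primary myoblasts of the C57BL/6J cultures 21, 26 and 27 were grown in the presence of serum and bFGF to passage 8 to 10, and the same cultures were turned to low serum for 1, 2 or 4 days to form myotubes. Cultures 26 and 27 were also taken at passage 0. Uncultured C57BL/6J muscle precursor cells gave 1 library without injury and 1 library prepared 3 days after CTX (cardiotoxin) injury. Whole skeletal muscle was taken from 129Sv/C57BL/6J animals (muscle 1 and 2) and a C57BL/6J animal (muscle 3). The labels give no ages, and all samples except E14Tg2, for which no sex is given, are labelled male. The ES lines are of 129 strains and the cultures are C57BL/6J, so strain and cell type cannot be told apart in any comparison with ES cells. Whole muscle holds many cell types, and a change in their shares cannot be told apart from a change within one. The libraries hold DNA only, so the labelled cell types could not be checked against expressed markers.

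The libraries held between 6237851 and 14696855 reads. Fragments of 2000 bp or longer gave between 10.0% and 12.1% of the reads in ES cells and between 1.98% and 2.60% in muscle. Reads in CpG islands made up 4.98% of the day 1 library and 4.78% of the day 4 library of culture 27, and between 1.65% and 4.78% in muscle. In the other libraries, ES cells included, the island share lay between 0.42% and 1.62%. These shares are given again where they touch a result.

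The ends of the fragment with the most reads in each gene are printed below because a read count reports on these sites. Each line gives 60 bases of the mm9 plus strand, 5′ to 3′, with the SmaI/XmaI site in capitals. The last line is the left end of the neighbouring Runx3 fragment of 228 bp, which shares its first site with the right end of the 543 bp fragment.
Itgam intron fragment, left end: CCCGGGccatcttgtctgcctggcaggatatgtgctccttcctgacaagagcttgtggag
Itgam intron fragment, right end: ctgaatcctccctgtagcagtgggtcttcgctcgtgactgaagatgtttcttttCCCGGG
Runx3 543 bp fragment, left end: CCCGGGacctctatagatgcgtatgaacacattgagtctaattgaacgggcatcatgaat
Runx3 543 bp fragment, right end: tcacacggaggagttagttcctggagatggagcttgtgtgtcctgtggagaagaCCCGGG
Lck 1754 bp fragment, left end: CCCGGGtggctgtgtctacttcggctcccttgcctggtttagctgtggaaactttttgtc
Lck 1754 bp fragment, right end: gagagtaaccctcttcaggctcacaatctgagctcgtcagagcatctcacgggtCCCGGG
Runx3 228 bp fragment, left end: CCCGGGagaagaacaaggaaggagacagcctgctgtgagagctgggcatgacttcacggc

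The Itgam fragment spans 646 bp (chr7:135266476-135267121), lies in no CpG island or shore and holds 19 CpGs from site to site. It lies in intron 29 of Itgam-001, a transcript of 30 exons, and 8 of the 10 annotated transcripts end at least 4471 bp upstream of it. The Runx3 fragment spans 543 bp (chr4:134686512-134687054) with 15 CpGs, in the first intron of the transcript that begins at the distal promoter, 9945 bp downstream of that start. The Lck fragment spans 1754 bp (chr4:129236044-129237797) with 24 CpGs. It lies in the first intron of the longest Lck transcript, and its near end is 409 bp upstream of the nearest annotated start of the proximal promoter.

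Reads were concentrated in a single fragment of each gene. The 646 bp fragment held 98% of the 19990 Itgam reads, the 543 bp fragment 76.4% of the 61489 Runx3 reads, and the 1754 bp fragment 97.1% of the 6556 Lck reads. Of the 46 members, 24 were 2000 bp or longer, and none of these passed 2.63 rpm in any library. In all, 7 members reached 10 rpm in at least 1 library, and 3, all of Runx3, had no read in any. A filter on low counts left 11 members tested in at least 1 comparison, and the other 35 held between 0 and 108 reads over all libraries, with a median of 13.

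**Figure D1:**
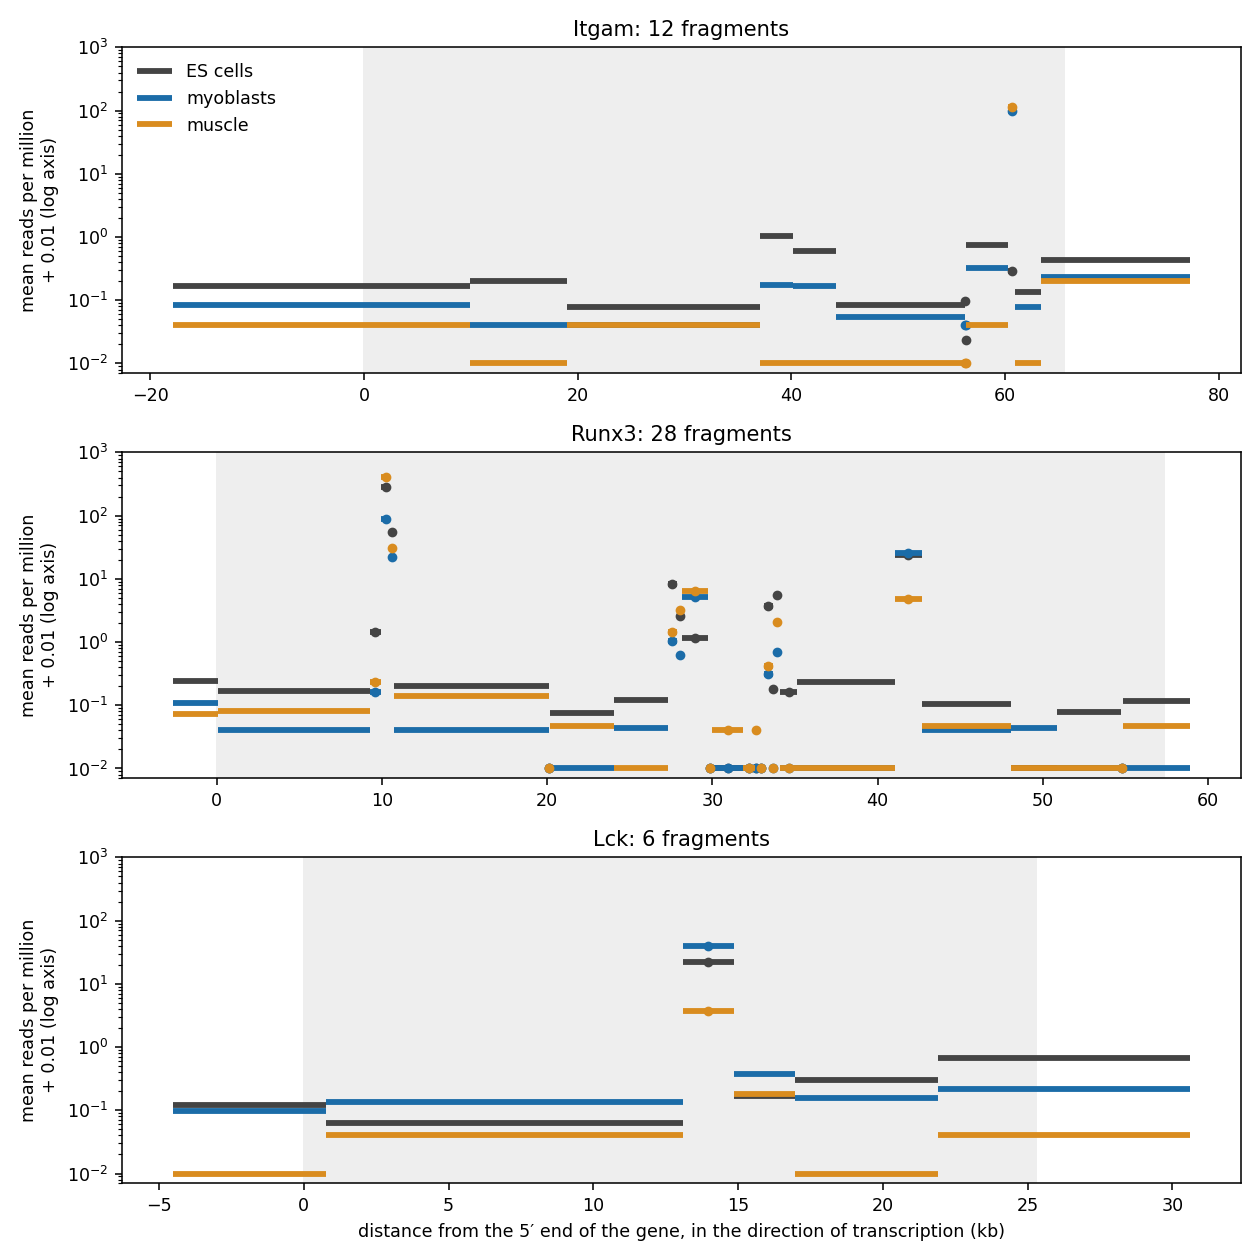
Mean rpm (plus 0.01, log axis) of every member fragment in ES cells, myoblasts and muscle, against distance from the 5′ end of each gene in kb. Bars span the fragments, points mark those under 2 kb, grey marks the gene body, and a single fragment stands far above the rest in Itgam and in Lck.

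At the proximal promoter of Runx3, the 1853 bp and 692 bp fragments that hold the CpG island had 1 read each over the 23 libraries. The 252 bp and 221 bp fragments on either side of these had 0 and 1 read. Fragments with methylated sites at both ends were thus all but unseen at the island in every group. The distal promoter of Runx3 lies on fragments of 2726 bp and 9219 bp, which had 23 and 17 reads. All members of 2000 bp or longer were low, at 2.63 rpm or less in any library. The part of length in these counts was not tested.

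In the Itgam intron, reads were nearly absent from ES cells and abundant in every other library. CGR8 had 0.48 rpm and its technical replicate 0.82 rpm, RD1 had 0.10 and E14Tg2 0.12 rpm, which came to 17 reads in the 4 ES libraries together. Myoblasts had 99.7 rpm in culture 21, 101 in culture 26 and 91.6 in culture 27. All 3 cultures stood within a narrow range, with a mean of 97.3 ± 5.01 rpm (SD, n = 3), against 0.28 ± 0.29 rpm in the 3 ES lines with the CGR8 libraries summed.

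Cells that had never been cultured also had the Itgam fragment. The uninjured precursor cells had 69.9 rpm (exact Poisson 95% interval 63.5 to 76.8, counting error only). Those taken after injury had 79.6 rpm (73.4 to 86.1). Passage 0 had 67.7 rpm in culture 26 and 86.7 in culture 27. On day 1 the cultures 21, 26 and 27 had 99.1, 135 and 86.7 rpm, on day 2 they had 101, 132 and 116 rpm, and on day 4 they had 105, 114 and 85.9 rpm. Muscle 1, 2 and 3 had 95.4, 114 and 133 rpm. Ordered by group mean, uninjured precursors, passage 0 and injured precursors stood lowest after ES cells, and the myoblast range overlapped those of day 1, day 4 and muscle. The day 2 libraries all lay above the myoblast libraries, by less than 1 rpm between the nearest.

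**Figure D2:**
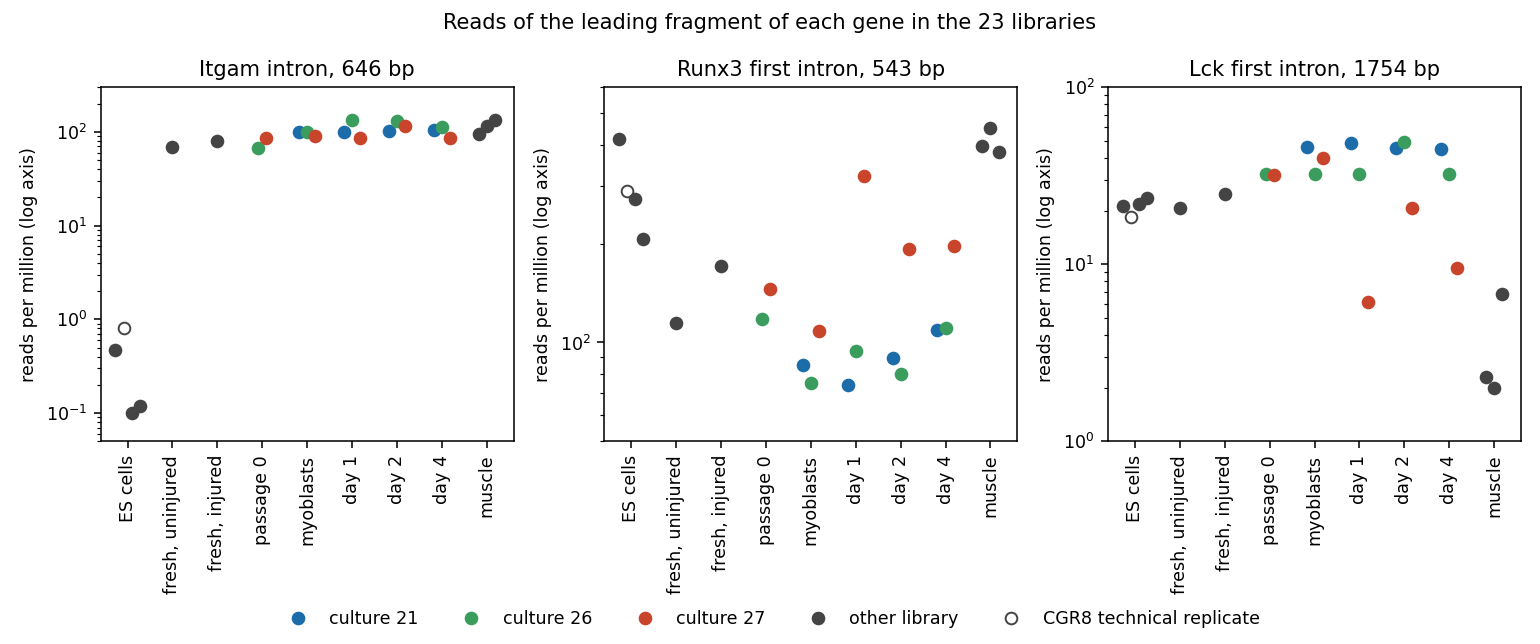
Levels in rpm (log axes) of the leading fragment of each gene in every library, by group, with the cultures 21, 26 and 27 in colour. The Itgam intron is below 1 rpm in all ES libraries and above 60 in all others, and culture 27 stands apart from cultures 21 and 26 on days 1, 2 and 4 for Runx3 and Lck.

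The fitted log2 change of the Itgam intron was 8.30 ± 0.85 (SE) in myoblasts against ES cells, 8.79 ± 1.06 in day 4 myotubes against ES cells and 9.08 ± 0.74 in muscle against ES cells. These share the ES libraries. Muscle stood 0.72 ± 0.44 above myoblasts under the default scaling (trimmed mean of M values, TMM) and changed by -0.26 when libraries were scaled within classes of fragment length, so no direction is given. Muscle 3, the C57BL/6J animal, was the highest of the muscle libraries, above the 2 animals of mixed 129Sv background.

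The right-hand site of the Itgam fragment lies inside an annotated RLTR10-int element, the internal part of an endogenous retrovirus of the ERVK family (chr7:135266879-135267129), of which 243 bp fall in the fragment. The left-hand site lies outside it. The next fragment downstream, 2394 bp long, shares the right-hand site and had 16 reads. After these values were seen, fragments under 2000 bp that touch an RLTR10-int element and had at least 10 rpm outside ES cells were counted. The Itgam intron is itself in the counts that follow. In 12 of 63 (19.0%) the ES mean was below 0.1 of the mean of the other libraries. Among all fragments of that length and level, with or without the element, it was so in 853 of 10213 (8.35%). The whole pattern, with all ES libraries below 1 rpm and all others at 50 rpm or more, was met by 23 of 1739 fragments (1.32%) that reached 50 rpm in all non-ES libraries. Of those 23, 3 (13%), the Itgam intron among them, touched an element of the LTR class, against 16.1% of the 1739.

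In the first intron of Runx3, the 543 bp fragment was high in ES cells and muscle and lower in cultured muscle cells. CGR8 had 419 rpm and its technical replicate 290 rpm, RD1 had 274 and E14Tg2 207 rpm. Myoblasts had 85.7 rpm in culture 21, 75.2 in culture 26 and 108 in culture 27. Every myoblast library thus lay below every ES library, with means of 89.7 ± 16.9 and 283 ± 80.5 rpm (SD, n = 3 each). The share of all fragments that separate groups as fully was not counted, here or for the fragments below, so nothing is read from such a separation.

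Muscle 1, 2 and 3 had 398, 451 and 380 rpm of the Runx3 fragment, a mean of 410 ± 36.7 rpm (SD, n = 3), so that no muscle library overlapped the myoblasts while their range met that of the ES libraries. Uninjured precursors had 114 rpm (exact Poisson 95% interval 106 to 123) and injured ones 171 rpm (161 to 180). These 2 libraries differed beyond counting error, but with 1 library in each group there is no test of injury. Passage 0 had 118 rpm in culture 26 and 145 in culture 27.

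During differentiation the Runx3 intron fragment separated the cultures. Culture 21 had 74.2, 90.0 and 109 rpm and culture 26 had 93.9, 80.2 and 110 rpm on days 1, 2 and 4. Culture 27 had 322, 193 and 197 rpm, above both other cultures on each of these days. The day 1 and day 4 libraries of culture 27 are those with the high CpG island share, while its day 2 library had 1.62%. The part of this share in the result was not tested.

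The fitted log2 change of the Runx3 543 bp fragment was -1.51 ± 0.46 (SE) in myoblasts against ES cells and 2.74 ± 0.44 in muscle against myoblasts. Day 4 myotubes differed from ES cells by -0.54 ± 0.57. Muscle stood 1.33 ± 0.40 above ES cells with TMM scaling, but 0.54 above with library totals and 0.39 above with scaling by fragment length. TMM places the median fragment of muscle against ES cells at -0.34 and library totals place it at -1.14.

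The 228 bp fragment next to it (chr4:134687055-134687282) needs the same site on its left, and it did not follow the 543 bp fragment. CGR8 had 5.78 rpm of it and the technical replicate of the same line 66.1 rpm, so these 2 libraries of 1 line differed by more than any 2 myoblast libraries did. RD1 had 91.0 and E14Tg2 47.0 rpm. Myoblasts had between 14.1 and 35.9 rpm and muscle between 19.4 and 45.7 rpm. Uncultured precursors had 62.5 and 51.3 rpm, above all myoblast libraries. On day 2 culture 27 had 0.71 rpm and on day 4 the same culture had 60.1 rpm.

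Fragments around the proximal Runx3 promoter had lower levels and differed among themselves. The 1587 bp fragment on the shore of the island (chr4:134704734-134706320) had between 0.84 and 1.73 rpm in the ES libraries. Myoblasts of culture 21 had 8.33 rpm, of culture 26 1.56 and of culture 27 5.58 rpm. The order of the cultures was kept on later days, when culture 21 had 9.5, 8.27 and 7.42 rpm and culture 26 had 1.66, 1.82 and 2.97 rpm. It did not hold at passage 0, where culture 26 had 4.14 rpm and culture 27 had 1.97 rpm. Uncultured precursors had 1.92 rpm without injury and 1.81 rpm after it, barely above the highest ES library. Muscle had between 5.92 and 6.97 rpm. The fitted log2 change was 2.37 ± 0.75 (SE) in myoblasts, 2.88 ± 0.78 in day 4 myotubes and 3.20 ± 0.50 in muscle, each against the same ES lines.

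The 403 bp fragment on the other shore (chr4:134710281-134710683), which overlaps the first exon of a short non-coding transcript, went the opposite way. It had between 4.07 and 7.65 rpm in the ES libraries, and 0.18, 0.65 and 1.24 rpm in myoblasts of cultures 21, 26 and 27. Muscle had 2.96, 2.23 and 1.00 rpm. The fitted log2 change of myoblasts against ES cells was -2.95 ± 0.67 (SE). The 310 bp fragment, between the distal and proximal promoters, had between 0.18 and 1.14 rpm in myoblasts, between 2.19 and 3.68 rpm in muscle and between 1.91 and 5.00 rpm in ES libraries, with a fitted change of 3.00 ± 0.73 in muscle against myoblasts.

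**Figure D3:**
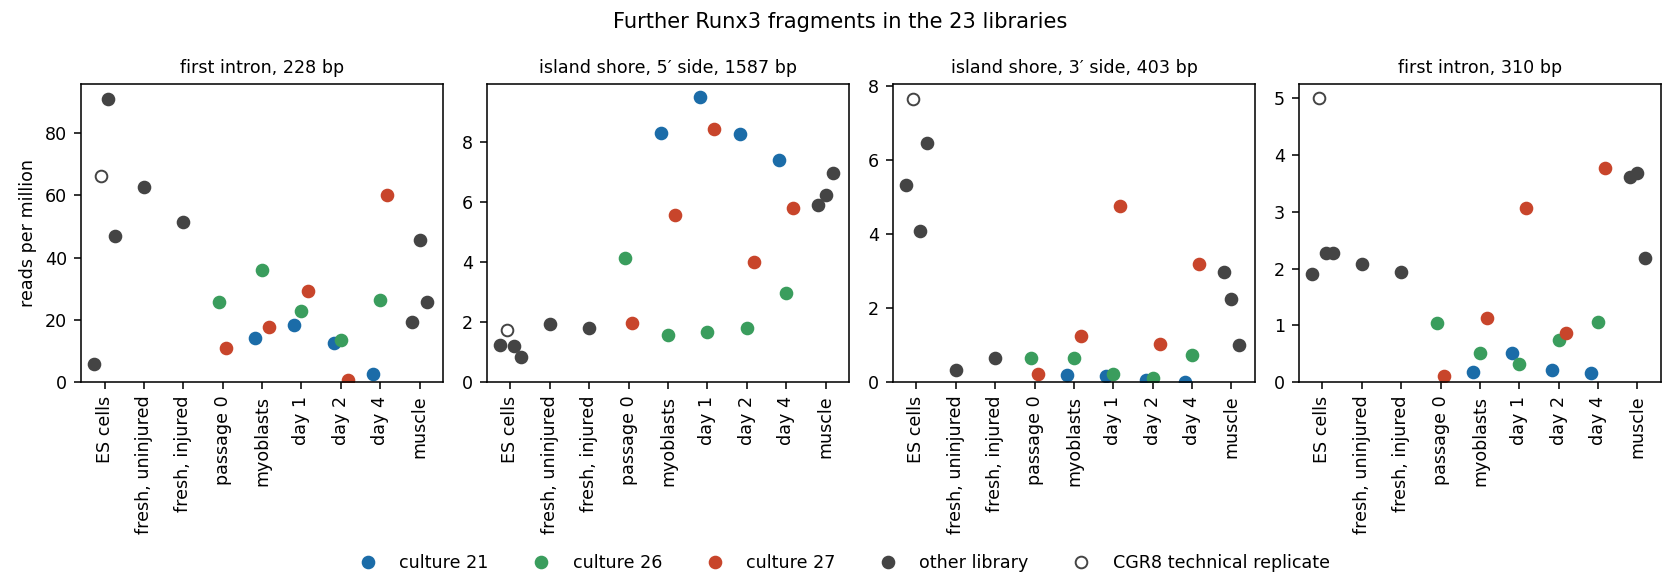
Levels in rpm of 4 further Runx3 fragments in every library, by group, with the cultures 21, 26 and 27 in colour. By group mean, the 1587 bp shore fragment is lowest in ES cells and the 403 bp shore fragment is highest there, though single libraries overlap in both. The 1587 bp fragment keeps the order of cultures 21 and 26 from myoblasts to day 4, while cultures 26 and 27 stand in the reverse order at passage 0.

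Of the remaining Runx3 fragments with enough reads, those of 564 bp and 558 bp shared a single high library. The 564 bp fragment had 26 rpm on day 4 in culture 27, against 0 in culture 21 and 2.33 rpm in culture 26. The 558 bp fragment, on the shore, had 16.0 rpm there, against 0 and 1.49 rpm. Both were also seen in RD1 and E14Tg2, at 11 and 11.5 rpm and at 4.26 and 5.97 rpm, but at 0.34 and 0.07 rpm in CGR8. The technical replicate of CGR8 had 6.32 and 1.84 rpm. The 683 bp fragment stayed at or below 2.32 rpm in all libraries.

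The 1605 bp Runx3 fragment (chr4:134717634-134719238) overlaps a coding exon shared by both full-length transcripts. ES libraries had between 18.6 and 29.4 rpm, and myoblasts had 36.7, 13.3 and 25.8 rpm in cultures 21, 26 and 27. Muscle 1, 2 and 3 had 3.98, 2.23 and 8.26 rpm, below every other library of the study. Day 4 myotubes lay close together at 15.2, 14.5 and 13.8 rpm. The fitted log2 change of muscle was -1.55 ± 0.46 (SE) against ES cells and -2.02 ± 0.64 against myoblasts.

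By group mean, the Lck fragment was highest in cultured muscle cells and lowest in muscle. CGR8 had 21.4 rpm and its technical replicate 18.6 rpm, RD1 had 21.8 and E14Tg2 23.8 rpm. Myoblasts had 45.9, 32.4 and 39.9 rpm in cultures 21, 26 and 27, all above the ES libraries, with means of 39.4 ± 6.77 against 22 ± 1.74 rpm (SD, n = 3 each). Muscle 1, 2 and 3 had 2.31, 2.01 and 6.77 rpm. Uninjured precursors had 20.7 rpm (exact Poisson 95% interval 17.3 to 24.6) and injured ones 24.9 rpm (21.5 to 28.7), intervals that overlap. Passage 0 had 32.4 rpm in culture 26 and 32.0 in culture 27.

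In myotubes the cultures parted for Lck as they did for Runx3, in the other direction. Culture 21 had 48.6, 45.3 and 45.1 rpm and culture 26 had 32.2, 49.1 and 32.5 rpm on days 1, 2 and 4. Culture 27 had 6.12, 20.7 and 9.57 rpm on these days, against 39.9 rpm as myoblasts. Its day 1 and day 4 libraries are those with the high island share. The day 1 library lay inside the range of muscle, below muscle 3, and the day 4 library came next above that range.

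The Lck fragment falls in a length class whose share of the reads differed between groups, and the part of length in its level was not tested. Fragments of at least 1600 and under 2000 bp gave between 0.71% and 1.09% of the reads in muscle. They gave between 1.86% and 3.26% in ES cells and between 1.65% and 2.82% in myoblasts. Set against the reads of fragments up to 20% shorter or 25% longer, the Lck fragment had 135, 124 and 266 reads per 1000000 in muscle 1, 2 and 3. The same measure gave between 334 and 523 in the ES libraries and between 662 and 1230 in myoblasts. The order of the 3 groups was thus kept, with a smaller relative gap between muscle and the others. On day 1 and day 4 culture 27 had 184 and 220, against 743 on day 2. For the 1605 bp Runx3 fragment this measure gave 166, 96.2 and 245 in muscle and between 320 and 367 in the ES libraries, again with no overlap. Myoblasts had between 258 and 792, the lowest of them close above muscle 3. The day 1 library of culture 27 had 218, below muscle 3, so on this measure muscle was not below every other library.

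**Figure D4:**
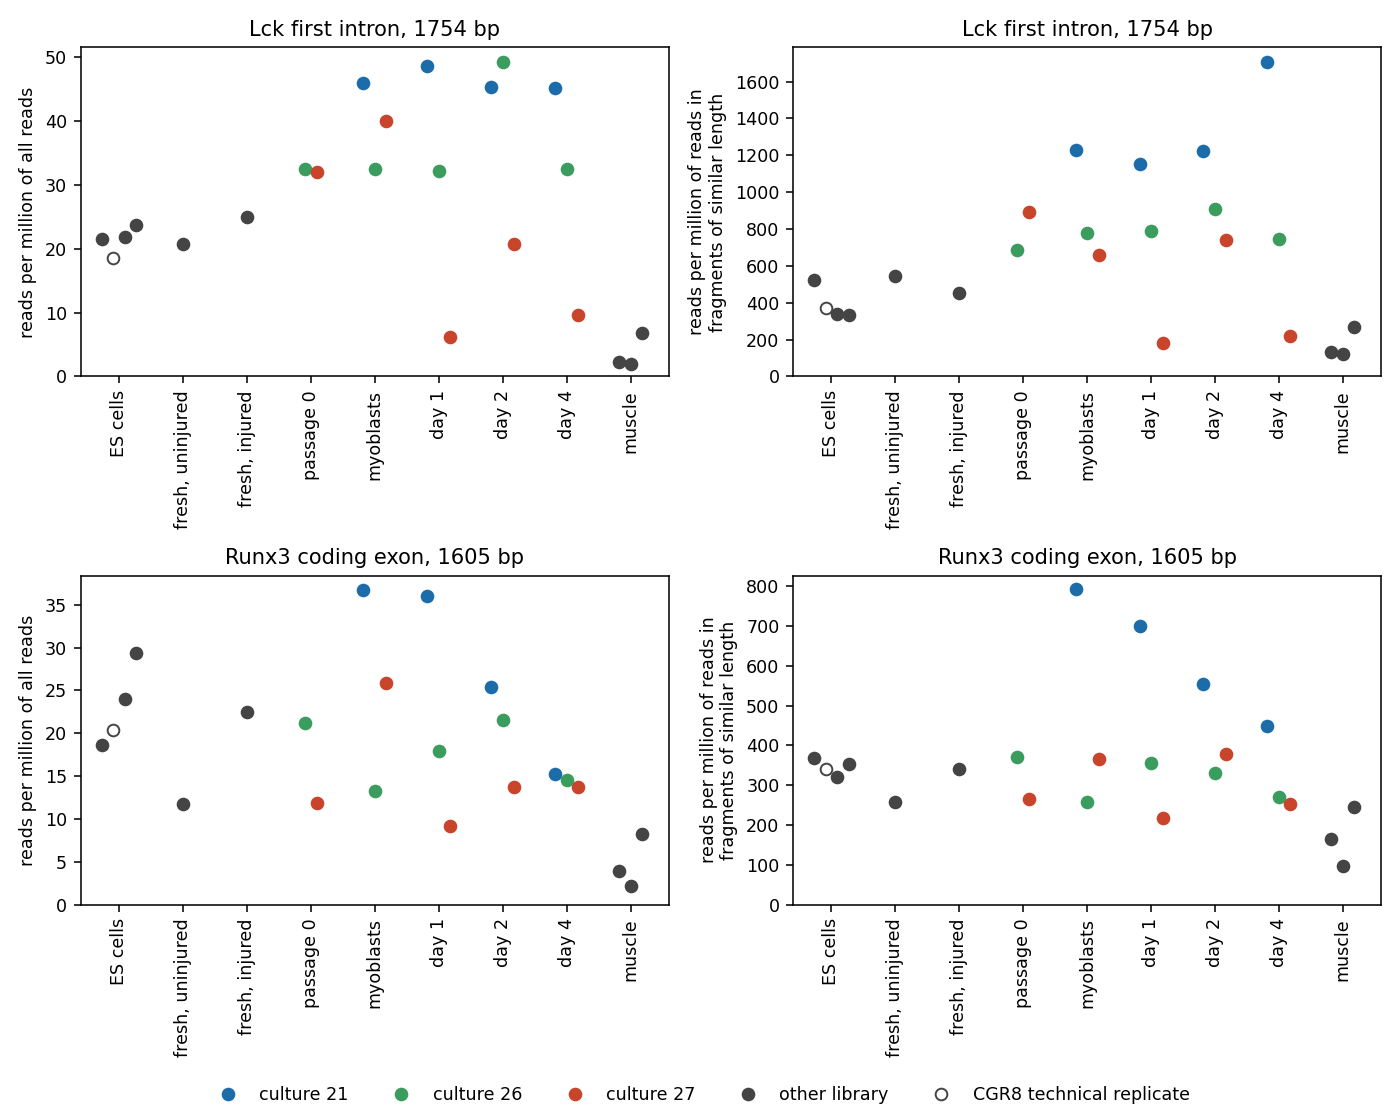
Levels of the 1754 bp Lck fragment and the 1605 bp Runx3 fragment in every library, as rpm with all reads as the total (left) or with reads of fragments of similar length as the total (right). On the left muscle is lowest in both, except that the day 1 library of culture 27 lies below muscle 3 for Lck. On the right the day 1 and day 4 libraries of culture 27 lie among the muscle libraries for Lck. For Runx3 the day 1 library of culture 27 lies among them, and libraries of several groups lie just above.

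The fitted log2 change of the Lck fragment was 1.09 ± 0.44 (SE) in myoblasts and 1.18 ± 0.78 in day 4 myotubes, both against ES cells. Muscle differed by -1.82 ± 0.48 from ES cells and by -3.02 ± 0.59 from myoblasts. Scaled within classes of fragment length, these last values were -0.87 and -2.28. For the 1605 bp Runx3 fragment the same scaling gave -0.57 and -1.26.

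Fragments were called in edgeR's quasi-likelihood test at a Benjamini-Hochberg adjusted p under 0.05 over all fragments tested. In myoblasts against ES cells 3 of 9 tested members were called (the Itgam intron higher, the Runx3 543 bp and 403 bp fragments lower), beside 19.9% of all fragments (8.22% higher and 11.7% lower). In day 4 myotubes against ES cells 1 of 11 was called, the Itgam intron, beside 11.3% (5.42% higher and 5.93% lower). In muscle against ES cells 5 of 9 were called, beside 59.1% (24.4% higher and 34.6% lower): the Itgam intron and the Runx3 543 bp and 1587 bp fragments higher, the Lck and Runx3 1605 bp fragments lower. In muscle against myoblasts 4 of 9 were called, beside 31.1% (13.7% higher and 17.4% lower): the Runx3 543 bp and 310 bp fragments higher, the Lck and Runx3 1605 bp fragments lower. With library totals in place of TMM, 3682 fragments were higher and 10948 lower in muscle against ES cells (5616 and 7959 with TMM), and 1313 and 4137 in muscle against myoblasts (2779 and 3530). Since such contrasts picked the genes, nothing is read from these shares. Without muscle 1 or without muscle 2, no member and no fragment at all was called in muscle against myoblasts. The log2 changes stayed close to those above, at -2.70 and -2.75 for Lck and 2.87 and 2.63 for the Runx3 543 bp fragment.

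**Figure D5:**
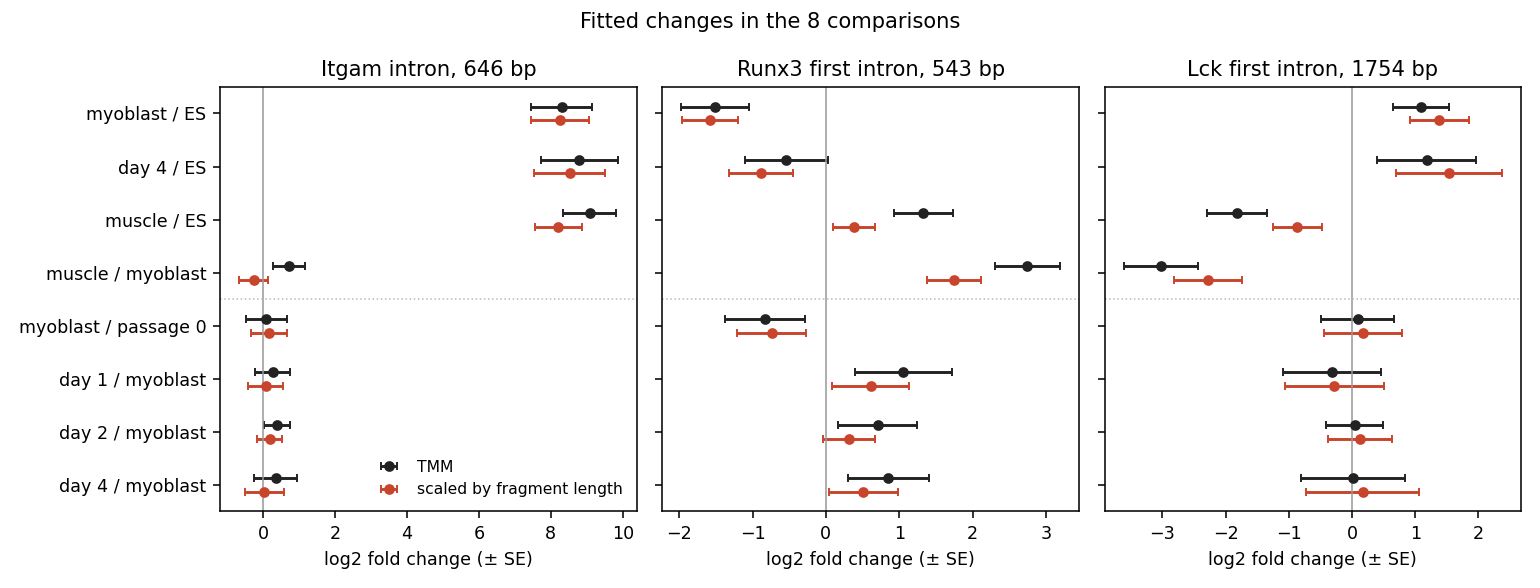
Fitted log2 fold changes (± SE) of the leading fragments in 8 comparisons, with TMM scaling (black) and scaling by fragment length (red). The dotted line parts the comparisons that picked the genes from those that did not. The latter share the myoblast libraries with the former, and every change in them lies between -0.83 and 1.06.

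The comparisons within the C57BL/6J cultures were not among those that picked the genes, but they share the myoblast libraries with them. Their results are therefore not independent of the choice. A fragment picked as low in myoblasts, such as the Runx3 543 bp fragment, can be tilted towards higher values in the other group. With this limit they were tested. None of the members passed in any: 0 of 7 on day 1, 0 of 6 on day 2 and 0 of 8 on day 4 against myoblasts, and 0 of 7 in myoblasts against passage 0. The background was 0% in each, since edgeR called 0 of 22016, 21781, 22438 and 23419 fragments, with 6, 64, 83 and 665 at an unadjusted p under 0.05. DESeq2 called 0, 0, 0 and 3 fragments, and edgeR with the culture as a block called 0, 0, 39 and 996, none of them members.

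Itgam changed by 0.27 ± 0.48, 0.40 ± 0.37 and 0.35 ± 0.60 (log2 ± SE) on days 1, 2 and 4 against myoblasts, and by 0.10 ± 0.57 in myoblasts against passage 0. The Runx3 543 bp fragment changed by 1.06 ± 0.66, 0.71 ± 0.54 and 0.85 ± 0.56 on these days and by -0.83 ± 0.55 from passage 0 to myoblasts. Without culture 27 in either group, its day 1 and day 2 changes were 0.02 ± 0.43 and 0.04 ± 0.50, and that of day 4 was 0.70 ± 0.67. Lck changed by -0.32 ± 0.78, 0.04 ± 0.45 and 0.02 ± 0.83 on these days, and by 0.09 ± 0.58 from passage 0, with signs that turned under other settings. The largest change among the members in these tests was that of the Runx3 564 bp fragment on day 4, 3.20 ± 1.78, which the single library of culture 27 carried. The lowest adjusted p of any member was 0.978 (edgeR, without pairing). In each of these fits the share of fragments at an unadjusted p under 0.05 was itself below 0.05, so the unpaired test was conservative. With the culture as a block, 69, 762, 1061 and 3676 fragments stood under that unadjusted threshold. A high adjusted p here does not show that a member was unchanged. The SE of the leading fragments in these tests was 0.37 to 0.83, from fits that did not pair libraries of the same culture. It limits the size of change that 2 or 3 libraries in a group could show in such a fit.

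In the authors' deposited table of DESeq results, day 4 over proliferating myoblasts stood at a log2 of 0.05 for the Itgam intron, 0.62 for the Runx3 543 bp fragment and -0.46 for Lck, each with an adjusted p of 1.0 under pooled dispersion. That table called 0 of 14 members under pooled dispersion, beside 0.0299% of all its fragments, and 2 of 14 with dispersion estimated per condition, beside 2.93%. These 2 were the Runx3 1605 bp fragment at -0.81 (adjusted p of 3.9e-06 in the authors' deposited table) and the Runx3 558 bp fragment at 3.79 (0.000145). The edgeR fit gave -0.55 ± 0.71 (SE) for the first, and the second, high in a single library of culture 27, did not pass the low-count filter. For passage 0 over myoblasts the authors' deposited table called 0 of 13 members under pooled dispersion, beside 1.55%, and 1 of 13 per condition, beside 9.15%. That was the Itgam intron at -0.33, with an adjusted p of 0.0028 per condition and 0.219 pooled in the authors' deposited table. The authors' deposited table of muscle over day 4 myotubes, a comparison not fitted here, gave 1.53 for the Runx3 543 bp fragment, -1.59 for the Runx3 1605 bp fragment, -2.94 for Lck and 0.14 for Itgam. For muscle over ES cells the authors' deposited table gave 0.33 for the Runx3 543 bp fragment, below the TMM value above.

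Fragments with the most similar patterns were ranked by Pearson's r of log2(rpm + 1) over 22 libraries (CGR8 summed), among 6600 fragments under 2000 bp of a single gene. The libraries share depth and length composition, and r is given as a description. Closest to the Itgam intron were fragments of Dtd1 and Smad6 (r = 0.991 each), Trpm1 and Dcps (0.990 each) and Rbms3 (0.987). All 5 had at most 1.63 rpm in ES cells and at least 42.2 rpm elsewhere, and that of Rbms3 touches an L1Md_A element. Closest to the Runx3 543 bp fragment were Vsnl1 (0.955), Spnb1 (0.942), Cmtm1 (0.941), 8430427H17Rik (0.940) and Plod1 (0.934). Closest to Lck were Ankrd26 (0.984), B4galt3 (0.982), Aagab (0.981), Sipa1l3 (0.975) and St8sia2 (0.974), whose fragments ran from 945 to 1711 bp.

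Other genes of blood cells were read from a list of 68 genes, of which 66 had a fragment. In myoblasts against ES cells 7 of 67 tested fragments were higher and 4 lower (16.4% called, against 19.9% of all), with a median log2 change of -0.01 against -0.08 for all fragments. In day 4 myotubes against ES cells 4 were higher and 1 lower of 69 (7.25%, against 11.3%), with a median of 0.09 against 0.00. In muscle against ES cells 22 were higher and 21 lower of 62 (69.4%, against 59.1%), with a median of 0.01 against -0.34. In muscle against myoblasts 10 were higher and 8 lower of 57 (31.6%, against 31.1%), with a median of -0.21 against -0.13. Within the cultures 0 of 60, 61, 62 and 65 fragments were called on days 1, 2 and 4 and from passage 0.

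Kit, the receptor of stem cell factor on blood progenitors, had the largest change of the list in myoblasts against ES cells, at a fragment that touches an RLTR10-int element. This fragment of 1761 bp (chr5:76040987-76042747) had at most 0.10 rpm in ES cells and between 1.00 and 17.4 rpm elsewhere, a log2 change of 8.45 ± 0.92 (SE). Another Kit fragment was higher by 4.00 ± 0.62. Gata3, a factor of T helper cells, had 13.7 ± 4.79 rpm in ES cells and 67.0 ± 29.0 rpm in myoblasts (SD, n = 3 each) at a shore fragment. Ebf1, a factor of B cells, was higher by 2.79 ± 0.59 at an island fragment. Lower in myoblasts were fragments of Runx1 at -2.13 ± 0.54, Bcl11b at -1.79 ± 0.46 and Cd34 at -2.62 ± 0.71, the last 14027 bp long. The Cd34 fragment also touches an RLTR10-int element, and went the opposite way to Kit, with between 1.31 and 2.86 rpm in ES libraries and at most 0.55 rpm elsewhere. Fragments of 2000 bp or longer gave between 10.0% and 12.1% of the reads in ES cells and between 3.88% and 6.37% in myoblasts. The part of length in the Cd34 change was not tested. In muscle against ES cells the Kit fragment was higher by 7.72 ± 1.13, an island fragment of Bcl11b, a factor of T cells, by 6.31 ± 0.66 and the Gata3 fragment by 4.10 ± 0.56. These are among 22 list fragments that were higher there, beside 21 lower ones that are not named. The list thus showed no single direction.

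In muscle against myoblasts, fragments of Itgax, the CD11c gene that follows Itgam on the chromosome, were higher at 2.30 ± 0.54 (log2 ± SE; chr7:135283485-135283993) and 2.90 ± 0.63. Emr1, the macrophage marker F4/80, was higher at 2.67 ± 0.49, and an island fragment of Gata2, a factor of blood progenitors, at 3.61 ± 0.81. Of the RUNX genes and their partner Cbfb, 4 of 12 tested fragments were lower and 0 higher, with a median of -1.21 (17.4% lower, 13.7% higher and a median of -0.13 over all fragments). The other classes of the list, between which some genes are shared, had 3 higher and 1 lower of 12 for B cells, 2 and 1 of 10 for T cells, 3 and 1 of 9 for myeloid cells, 2 and 2 of 13 for stem, progenitor and erythroid cells, and 0 and 1 of 8 for the SRC family. The called ones in Runx2 (-6.98 ± 1.19), Runx1 (-5.02 ± 0.99 and -3.43 ± 0.68) and Cbfb (-4.45 ± 0.93) were all between 2555 and 4178 bp long, the class that gave fewer reads in muscle. The part of length in these calls was not tested. Like those of the members, these calls were lost without muscle 1 or muscle 2.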

How the data were processed

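Reads came from an Illumina GA2 and were mapped to mm9, per the labels. Bowtie 0.11.3 and DESeq are listed in the submitters' processing notes. The authors deposited whole-number read counts per SmaI/XmaI fragment, which were tested here. The deposited DESeq tables supplied the log2 fold changes and adjusted p-values credited to the authors, and 184 other per-library columns were not used. Levels are reads per 1000000 reads of a library. The 2 CGR8 libraries were summed. Fragments were tested with edgeR 4.0.16 (TMM, quasi-likelihood, filterByExpr with minimum count 10, Benjamini-Hochberg over all fragments, threshold 0.05, 2-sided), fitting only the groups compared, after a check on simulated data. SE is the log2 change over the root of F. DESeq2 1.42.0 and other scalings were alternatives. Members and lists were chosen with earlier results of these data known, and scaling by length class, leaving out culture 27, using muscle 3 alone and the RLTR10-int counts were added after the values were seen. Members tested in at least 1 comparison, list calls and the 5 most alike fragments were candidates for naming. The plan was up to 3 list calls per direction and comparison, but the text names more in some and none in others. Whether replicates other than the numbered cultures, lines and muscles are biological is not stated, so p-values measure the spread between these libraries. Libraries of the same culture number came from the same culture by the labels, and their deviations from group means correlated at 0.27 to 0.88 (18 pairs), against -0.77 to 0.35 between cultures (36 pairs). Sequences are from the mm9 reference, where all 22760 fragments of chromosomes 4 and 7 began and ended in a CCCGGG site.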

Additional observations from a re-analysis of the deposited data

How the results depend on the processing

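In the contrasts that picked the genes, what follows is a description and supports no finding. The replicate block in these contrasts joined libraries that bear the same replicate number, such as muscle 1 and culture 21. The labels do not pair such libraries, so the counts with this block show no effect of a pairing. The log2 change of the Itgam intron against ES cells ran from 7.91 to 10.5 for myoblasts and day 4 and from 8.20 to 10.9 for muscle, and that of the 1587 bp Runx3 fragment in muscle from 2.44 to 3.72, over the alternatives run. In myoblasts against ES cells the Runx3 543 bp call was lost in 11 of 15 alternatives, all 6 that left out a library included (log2 from -1.78 to -0.88), and the 403 bp call in 4 of 15. In muscle against ES cells the calls of Runx3 543 bp, Runx3 1605 bp and Lck were lost in 7, 6 and 4 of 16. In muscle against myoblasts the calls of Runx3 1605 bp and 310 bp were lost in 9 and 7 of 15, and those of Lck and Runx3 543 bp in 3 each, without muscle 1, without muscle 2 and with muscle 3 alone. Their log2 changes with single libraries left out ran from -3.45 to -2.64 for Lck and from 2.62 to 3.04 for Runx3 543 bp. The number of members called in myoblasts against ES cells, 3, became 5 with DESeq2, with no filter, with the replicate block and with length-class scaling, 1 with all groups in one fit, and 1 to 4 when single libraries were left out (1 without E14Tg2). In day 4 against ES cells 1 became 2 with DESeq2 size factors, DESeq2, the replicate block, the CGR8 libraries kept apart and all groups in one fit, and 1 to 2 with libraries left out. In muscle against ES cells 5 became 9 with no filter, 3 with all groups in one fit, 2 with muscle 3 alone and 3 to 9 with libraries left out (9 without CGR8, 3 without E14Tg2 or muscle 1). In muscle against myoblasts 4 became 2 with the replicate block, 2 with all groups in one fit, 0 with muscle 3 alone and 0 to 5 with libraries left out. The cause was not tested. Over all fragments the block moved the calls of muscle against myoblasts from 6309 to 1431, and length-class scaling to 3746. In day 4 against ES cells DESeq2 called 4592 fragments and no filter 6173, against 2893. Without muscle 1 or 2, or with muscle 3 alone, 0 fragments were called in muscle against myoblasts. Fragments under 2000 bp alone gave 2636, 1077, 8272 and 4066 calls in these 4 contrasts. Fewer fragments were tested, and the balance of directions moved too: 950 higher and 127 lower in day 4 against ES cells, against 1382 and 1511, and 1538 and 1098 in myoblasts against ES cells, against 2068 and 2937. The cause was not tested. With no filter, 31, 4, 107 and 51 fragments were called within the cultures.

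Among changes that passed no test, some turned sign. Itgam on day 4 ran from -0.085 to 0.60 with libraries left out, and against passage 0 it was -0.088 with the replicate block and ran from -0.28 to 0.57. Lck on day 1 ran from -0.96 to 0.15 and on day 2 from -0.12 to 0.56, with -0.039 under library totals. Lck on day 4 was -0.44 with library totals, -0.020 with no filter, -0.11 with fragments under 2000 bp and -0.43 with the replicate block, and ran from -0.99 to 0.48. Against passage 0 Lck was -0.26 with the replicate block and ran from -0.28 to 0.34. In all, 20 of 177 such values changed sign, and 1 of 290 did in the contrasts that picked the genes, the uncalled change of the Itgam intron in muscle against myoblasts (-0.26 with length-class scaling). The block changed no member's call within the cultures. A window of 0 bp upstream in place of 2000 bp gave the same 46 members.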
